A study of Mus musculus with 16 samples.

Results

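The genes described here encode the chromodomain subunits CBX2, CBX6, CBX7 and CBX8 of Polycomb repressive complex 1 (PRC1) and the subunits EZH1, EZH2, EED, SUZ12 and JARID2 of Polycomb repressive complex 2 (PRC2). They are 9 of the 22232 protein-coding gene names of the GENCODE M1 annotation of the mouse genome (mm9), and were chosen by name for their role. PRC2 trimethylates a lysine of histone H3 (H3K27me3), and PRC1 places ubiquitin on a lysine of histone H2A (H2AK119ub1). Canonical PRC1 carries a CBX protein, whose chromodomain reads H3K27me3, while the variant PRC1 that holds PCGF5 has no CBX subunit. Both marks are known for covering silent developmental genes in embryonic stem cells (ES), and some of the genes that encode the Polycomb machinery are themselves covered by them.

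The series held 16 ChIP-seq libraries. Peak lists of 10 were used, and the 6 inputs were not used here. H2AK119ub1 and H3K27me3 were each mapped in ES of both genotypes, wild type and PCGF5-deficient (also called deficient here), and in neural precursor cells (NPC) of both genotypes. PCGF5 itself was mapped through a Flag tag in ES and in NPC, in libraries that the labels call wild type and the methods of the study describe as cells with a tagged Pcgf5 gene. Each of these groups had 1 library, so no difference between groups could be set against replicate error and none was tested. All cells derived from an ES line in which GFP marks the activity of Sox1, an early neural gene. ES were grown on mouse embryo fibroblast feeders in serum with leukemia inhibitory factor and 2 kinase inhibitors, and NPC were collected at day 6 of neural differentiation in suspension. The labels give the deficient genotype as shPCGF5, a short hairpin RNA against Pcgf5, with no hairpin or clone named, and RNA levels cannot be read from peak lists.

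The files give for each peak its position, its width and the fold enrichment over background within its own library. Without read totals in the files the sequencing depth is unknown, and a missing peak does not show that the mark was missing. The histone lists held 3845 to 14759 peaks, and the Flag-PCGF5 lists 653 in ES and 12013 in NPC. Promoter peaks were those centred at most 2500 bp from any annotated start of a protein-coding transcript, and the promoter coverage of a gene is the number of bp under its promoter peaks. Of the genes fixed as markers of the cell types, Pou5f1 and Nanog of ES had no promoter peak in any list and Zfp42 had 1, of H3K27me3 in wild type NPC. Of the NPC markers, Pax6 had promoter peaks in all 8 histone lists and Nes in 6 of them.

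Only Cbx2, Cbx8 and Eed had a promoter peak in any of the 10 lists, and only Cbx2 and Cbx8 in a histone list. Cbx8 was marked in all 8 histone lists. Cbx2 was marked in 3 of the 4 histone lists of PCGF5-deficient cells and in 0 of the 4 of wild type cells. Eed had 1 Flag-PCGF5 peak in NPC and no histone peak. The other 6 genes, Cbx6, Cbx7, Ezh1, Ezh2, Suz12 and Jarid2, had no promoter peak in any list, and Jarid2 alone of these had a peak inside the gene. The sequences under the peaks of these genes are shown first, and their values follow.

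The Cbx8 sequences are shown because they are the stretches before the gene that lay under peaks of at least 7 of the 8 histone lists. Cbx8 lies on chromosome 11 from 118897619 to 118902283 on the minus strand, so that its upstream side has the higher coordinates. These stretches are at chr11:118903848-118904007 and chr11:118904582-118904717, which is 1565 to 1724 bp and 2299 to 2434 bp before the farther of its 2 start sites. Both are outside protein-coding genes. They are written 5′ to 3′ on the plus strand of mm9, and capitals mark CG dinucleotides, the sites of DNA methylation in mammals and the feature that CpG islands are rich in. The first is 160 bases long with 10 CG dinucleotides, and the second is 136 bases long with 3.
Cbx8 upstream 1: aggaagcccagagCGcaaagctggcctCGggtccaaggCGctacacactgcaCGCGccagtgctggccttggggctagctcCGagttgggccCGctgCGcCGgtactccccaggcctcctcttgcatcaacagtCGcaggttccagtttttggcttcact
Cbx8 upstream 2: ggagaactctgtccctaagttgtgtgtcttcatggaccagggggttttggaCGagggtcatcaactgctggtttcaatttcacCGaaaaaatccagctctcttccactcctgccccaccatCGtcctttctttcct
Within the second stretch, 13 bases at chr11:118904616-118904628 lay under a peak of all 8 histone lists.
Cbx8 all lists: gaccagggggttt

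The Cbx2 sequence is the whole H3K27me3 peak of PCGF5-deficient ES before that gene, at chr11:118882976-118883237. It is shown because its last 62 bases, at chr11:118883176-118883237, lay under a peak of all 3 lists that marked Cbx2. It is 262 bases long with 4 CG dinucleotides and is outside protein-coding genes.
Cbx2 H3K27me3 peak: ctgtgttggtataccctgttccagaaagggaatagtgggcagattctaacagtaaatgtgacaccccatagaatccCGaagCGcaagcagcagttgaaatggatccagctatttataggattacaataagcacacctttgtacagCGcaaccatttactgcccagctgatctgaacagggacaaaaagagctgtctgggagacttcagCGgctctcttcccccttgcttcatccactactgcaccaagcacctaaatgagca
The Eed sequence is the part of its Flag-PCGF5 peak that lies before the start site, at chr7:97129494-97129588, and holds 3 CG dinucleotides in 95 bases.
Eed Flag-PCGF5 peak before the start: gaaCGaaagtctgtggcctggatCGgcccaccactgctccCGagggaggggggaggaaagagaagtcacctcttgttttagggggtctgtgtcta
The Jarid2 sequence is the H3K27me3 peak in an intron of Jarid2 in wild type NPC, at chr13:44964896-44965153. It holds 16 CG dinucleotides in 258 bases.
Jarid2 intron peak: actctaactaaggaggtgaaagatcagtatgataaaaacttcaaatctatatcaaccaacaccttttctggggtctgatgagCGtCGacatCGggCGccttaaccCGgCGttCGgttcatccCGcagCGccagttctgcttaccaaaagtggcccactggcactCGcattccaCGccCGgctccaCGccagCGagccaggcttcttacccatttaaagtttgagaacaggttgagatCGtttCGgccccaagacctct

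Counted by list, H2AK119ub1 marked the promoters of 1 of the 9 genes in wild type ES, 2 in deficient ES and 1 in NPC of either genotype. Over all genes the same lists marked 6.69%, 5.96%, 4.98% and 4.17%. H3K27me3 marked 1, 2, 1 and 2 of the 9 genes in the same order, against 13.4%, 12.9%, 15.7% and 15.5% of all genes. Flag-PCGF5 marked 0 of 9 in ES, where 0.787% of all genes had a promoter peak, and 1 of 9 in NPC, where 13.7% had one. With 0 to 2 genes of 9 in a list, nothing particular to the group can be read from these counts. Peaks anywhere on a gene, from start to end or in the promoter window, added only the Jarid2 peak of wild type NPC to these counts, which made 2 of 9 in that list against 17.7% of all genes. By that wider rule the shares of all genes were 10.8%, 9.95%, 6.27% and 5.91% for H2AK119ub1 in the order above, 16.9%, 16.3% and 17.6% in the other H3K27me3 lists, and 1.56% and 22.4% for Flag-PCGF5 in ES and NPC.

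**Figure D1:**
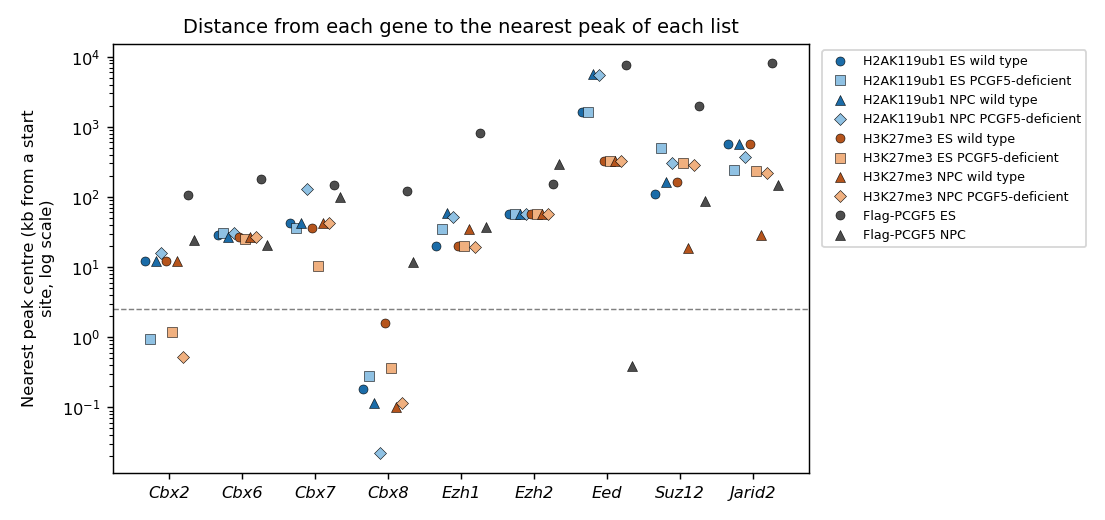
Distance in kb (log axis) from the closest start site of each gene to the centre of the nearest peak, with 1 point for each of the 10 lists; colour and symbol give the target, stage and genotype, and the dashed line is the 2.5 kb limit of a promoter peak. The 8 histone points of Cbx8, 3 of the 8 of Cbx2 and the NPC Flag-PCGF5 point of Eed lie below the line, and every point of the other 6 genes lies above it.

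Cbx8 encodes a chromodomain subunit of canonical PRC1 that reads H3K27me3. It was the only one of the 9 genes with peaks of both marks in both genotypes and at both stages. A promoter peak in all 8 histone lists was found at 316 genes, which is 1.42% of all genes and 5.77% of the 5474 genes with a promoter peak in any histone list.

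H2AK119ub1 peaks covered 1691 bp at the Cbx8 promoter in wild type ES (4 peaks), 3272 bp in deficient ES (4 peaks), 1053 bp in wild type NPC (3 peaks) and 792 bp in deficient NPC (3 peaks). H3K27me3 peaks covered 972 bp in wild type ES (3 peaks), 1170 bp in deficient ES (3 peaks), 4062 bp in wild type NPC (5 peaks) and 4481 bp in deficient NPC (5 peaks). Thus the H3K27me3 coverage was higher in both NPC lists than in both ES lists, while the H2AK119ub1 coverage was lower in both NPC lists than in both ES lists. With a window of 1000 bp, which leaves out the peaks farther before the gene, the H3K27me3 coverage in wild type ES was 0 bp. With that window the order of the H2AK119ub1 lists was not kept, as deficient NPC had 468 bp and wild type ES 414 bp. Flag-PCGF5 covered 0 bp in ES and in NPC, and its nearest NPC peak was 11.99 kb away.

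**Figure D2:**
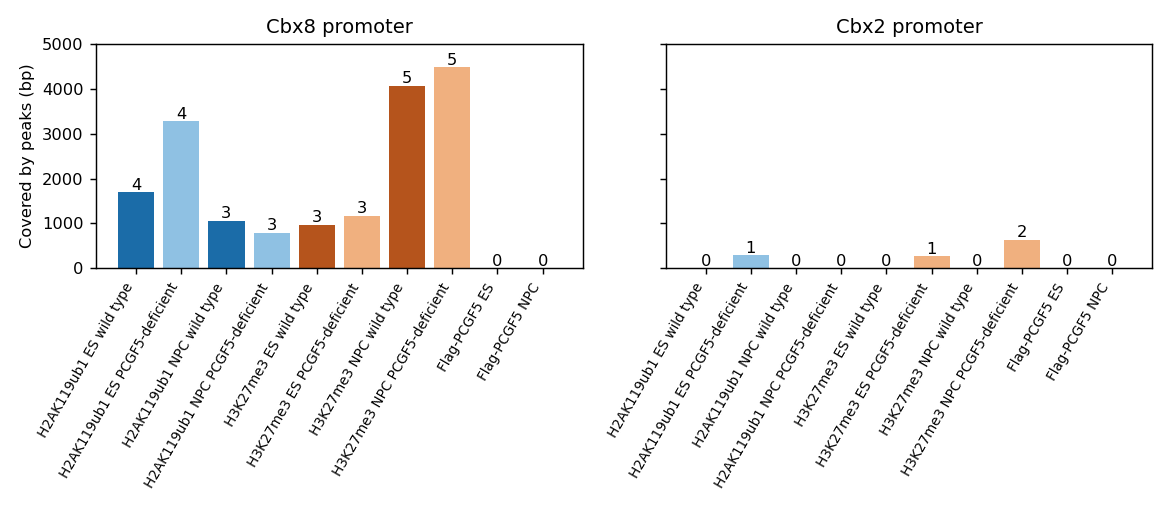
Promoter coverage in bp of Cbx8 (left) and Cbx2 (right) in each of the 10 lists; each bar is 1 library and the number above it is the number of promoter peaks. At Cbx8 the H3K27me3 bars are 972 and 1170 bp in ES and 4062 and 4481 bp in NPC, and at Cbx2 the 3 bars above 0 are all from PCGF5-deficient cells.

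Against ES, the H3K27me3 coverage of Cbx8 in NPC was higher by 2.06 on the log2 scale in wild type cells and by 1.94 in deficient cells. Over the genes with a promoter peak at both stages, the median log2 difference was 1.25 in wild type (2129 genes) and 1.00 in deficient cells (2190 genes). In these comparisons 60.3% of the genes with a peak at either stage were at least 2-fold higher in NPC in wild type cells and 56.9% in PCGF5-deficient cells, and 21.5% and 19.6% were at least 2-fold lower, so Cbx8 moved in the direction of most genes. For H2AK119ub1 the log2 difference between NPC and ES was -0.68 in wild type and -2.05 in deficient cells, beside medians of 0.26 (550 genes) and -0.26 (542 genes). The value in PCGF5-deficient cells passed the 2-fold limit, as did 54.2% of all genes with a peak at either stage in that direction, and the value in wild type cells did not, where 50.7% of genes were lower and 35.7% higher. In PCGF5-deficient cells 26.7% were higher.

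Between genotypes the Cbx8 promoter did not pass the 2-fold limit for either mark with all peaks and the window of 2500 bp, but it did under other settings. In ES its H2AK119ub1 coverage was 1.93 times as high in PCGF5-deficient as in wild type cells, a log2 difference of 0.95 against a median of -0.15 over 726 genes. In NPC the corresponding difference was -0.41 against a median of -0.58 over 562 genes, and it turned to 1.64 when the window was narrowed to 1000 bp. For H3K27me3 it was 0.27 in ES (median -0.14, 2109 genes) and 0.14 in NPC (median -0.37, 2648 genes). The wider H2AK119ub1 coverage in PCGF5-deficient ES lay mainly in 1 peak of 2055 bp before the gene, where the wild type list had 2 peaks of 713 and 385 bp. All 4 wild type ES peaks were overlapped by a peak of PCGF5-deficient ES. With the higher-scoring 50% of each list the ES difference was 1.05 for H2AK119ub1 (1512 and 3132 bp) and 1.83 for H3K27me3 (330 and 1170 bp), and with equal numbers of top-scoring peaks it was 1.51 for H2AK119ub1 (1098 and 3132 bp). With the window of 1000 bp H3K27me3 covered 0 bp in wild type and 456 bp in deficient ES.

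Among the genes with a promoter peak in the same list, Cbx8 had wide coverage. Its 2 start sites gave it a promoter window of 7174 bp, beside 5001 bp for Cbx2 with 1 start site. The percentiles were not adjusted for the size of the window. Its percentile of H2AK119ub1 coverage was 93.4 in wild type ES, 98.5 in deficient ES, and 76.5 and 75.9 in wild type and deficient NPC. For H3K27me3 the percentiles were 73.9, 84.6, 92.1 and 96.4. By its score within the list, the highest Cbx8 peak stood at percentiles from 65.9 to 88.2 for H2AK119ub1 and from 62.6 to 96.9 for H3K27me3. The lower end of the latter range was PCGF5-deficient ES. There 3 Cbx8 peaks with the same fold and q-value stood at 59.2, 60.2 and 62.6, since ties were ordered at random.

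The Cbx8 peaks fell into a group before the gene and a group within it. The upstream group held the peak with the highest fold enrichment in 6 of the 8 lists by itself. In the H3K27me3 list of wild type NPC the upstream peak ran over 2549 bp with a fold of 9.45, against a range from 2.65 to 4.51 for the 4 peaks within the gene. In PCGF5-deficient NPC the corresponding peak ran over 2671 bp with a fold of 7.07, against 2.76 to 5.32 within the gene. In wild type ES the upstream H3K27me3 signal was split into peaks of 371 bp (fold 3.77) and 330 bp (fold 6.16), and in PCGF5-deficient ES into peaks of 382 and 332 bp (fold 5.45 in both). In PCGF5-deficient ES the highest H2AK119ub1 peak was inside the gene, with a fold of 5.60 against 4.50 upstream.

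Most peaks within the gene lay around the second start site, at position 118900110, or on toward the 3′ end. In each NPC list of H3K27me3 1 further peak lay between the start sites and nearer the farther one. It was centred 735 bp (wild type) and 917 bp (deficient) downstream of that farther start. Near the second start 59 bases of a coding exon, at chr11:118900241-118900299, were under peaks of 7 of the 8 histone lists. The list with no peak there was H3K27me3 of wild type ES, whose only peak within the gene was 271 bp wide and centred 1611 bp downstream of the second start. Of the 7174 bp of the Cbx8 promoter window, 13 were covered in all 8 histone lists, 342 in exactly 7 and 2740 in none. The list with no peak over the first of the 2 printed upstream stretches was H2AK119ub1 of wild type NPC. Thus at least 7 of the 8 histone lists placed peaks on each of these stretches before the gene and near the second start, with different edges. Words of 36 bases that also occur elsewhere in the assembly made up at most 25.6% of a Cbx8 peak, which was the H2AK119ub1 peak of 164 bp in deficient NPC, and at most 12.2% of any other.

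Both marks shared bases at Cbx8 in all 4 cell populations. In wild type ES 680 bp were shared, which is 40.2% of the H2AK119ub1 and 70.0% of the H3K27me3 coverage. In PCGF5-deficient ES all 1170 bp of H3K27me3 lay within H2AK119ub1 peaks, which is 35.8% of the H2AK119ub1 coverage. In wild type NPC it was the other way round, with all 1053 bp of H2AK119ub1 within H3K27me3 peaks, or 25.9% of the latter. In PCGF5-deficient NPC 559 bp were shared, which is 70.6% and 12.5%. Both marks were at the promoters of 5.34%, 4.37%, 4.73% and 3.86% of all genes in these populations.

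Cbx2 encodes a chromodomain protein of canonical PRC1 that is known for compacting chromatin, and its gene lies 5.03 kb from Cbx8 on chromosome 11, from 118884276 to 118892584 on the plus strand. No list had a promoter peak there in wild type cells. In PCGF5-deficient ES, H2AK119ub1 had 1 peak of 287 bp with a fold of 4.16, centred 957 bp before the start, and H3K27me3 had 1 peak of 262 bp with a fold of 3.87, centred 1169 bp before it. In PCGF5-deficient NPC, H3K27me3 had a peak of 354 bp with a fold of 3.91, centred 1098 bp before the start, and another of 276 bp with a fold of 2.89, centred 522 bp before it. H2AK119ub1 of PCGF5-deficient NPC had none.

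These Cbx2 peaks were low in their lists. By score they stood at percentiles 43.3, 19.3, 31.4 and 5.23 in the order given, so that with only the higher-scoring 50% of each list the Cbx2 promoter had 0 bp in all of them. Genes with a promoter peak in at least 3 PCGF5-deficient histone lists and in no wild type one numbered 22, or 0.0990% of all genes, and the opposite pattern was found at 18 genes, or 0.0810%. The limit of 3 lists follows the Cbx2 values, so these shares do not show how unusual Cbx2 is. With any number of lists, 894 genes (4.02%) had promoter peaks only in PCGF5-deficient histone lists. Only in wild type histone lists the number was 1104 (4.97%). By the rule that a peak in only 1 of the lists compared counts as a difference, Cbx2 was higher in PCGF5-deficient cells for H2AK119ub1 in ES, H3K27me3 in ES and H3K27me3 in NPC, and so were 33.6%, 27.7% and 23.7% of the genes with a peak in either list, while 43.5%, 34.5% and 34.1% were lower. With all peaks and the window of 2500 bp it was the only one of the 9 genes past this limit in these comparisons. In ES the gene past the limit changed from Cbx2 to Cbx8 for H2AK119ub1 with the higher-scoring 50% or equal numbers of peaks, and for H3K27me3 with the higher-scoring 50% or the window of 1000 bp. For H2AK119ub1 in NPC no member passed it in either direction with all peaks and the window of 2500 bp, against 29.0% higher and 51.8% lower among all genes.

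In the 10 kb before the Cbx2 start, all 6 histone peaks came from PCGF5-deficient cells. All but 2 of these were the promoter peaks given above. The further 2 were H3K27me3 peaks outside the promoter window, of 263 bp in ES and 183 bp in NPC, centred 3253 and 3216 bp before the start. By score these further 2 peaks were also low, at percentiles 13.7 in the ES list and 16.9 in the NPC list. This stretch was looked at after the promoter values were known, so the promoter peaks in it add nothing to those values. How often such a stretch before other genes holds peaks of PCGF5-deficient cells only was not counted. The H2AK119ub1 and H3K27me3 peaks of PCGF5-deficient ES shared 62 bp, the last bases of the Cbx2 sequence printed above. Between ES and NPC, the H3K27me3 coverage in PCGF5-deficient cells went from 262 to 630 bp, or 2.40 times. This is a log2 difference of 1.27, beside a median of 1.00 over 2190 genes. Of the genes with a peak at either stage 56.9% were at least 2-fold higher in NPC and 19.6% lower, so Cbx2 moved as most genes did. With equal numbers of top-scoring peaks its values were 262 and 354 bp, below the 2-fold limit. No list had a peak over the Cbx2 gene itself, and no 36-base word of its promoter peaks occurred elsewhere in the assembly.

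The stretch from 2500 bp before Cbx2 to 20 kb before Cbx8 is 40508 bp long, at chr11:118881776-118922283, and was set and divided by its genes after the promoter values were known. H3K27me3 covered 4303 bp (10.6%) of it in wild type ES, 4172 bp (10.3%) in deficient ES, 21219 bp (52.4%) in wild type NPC and 18868 bp (46.6%) in deficient NPC. H2AK119ub1 covered 4160, 5753, 4380 and 1999 bp in the same order. The NPC lists of both genotypes thus had several times the H3K27me3 coverage of the ES lists here, and this was not so for H2AK119ub1. The H3K27me3 peaks of the whole lists also covered more in NPC, 9.67 Mb in wild type and 8.18 Mb in deficient cells. In ES they covered 4.31 and 3.84 Mb. The H2AK119ub1 peaks of the whole lists covered 2.49, 2.09, 2.33 and 1.12 Mb, in the order above. Higher H3K27me3 coverage in NPC was thus not particular to this stretch. Its size here against that of the whole lists was not tested.

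**Figure D3:**
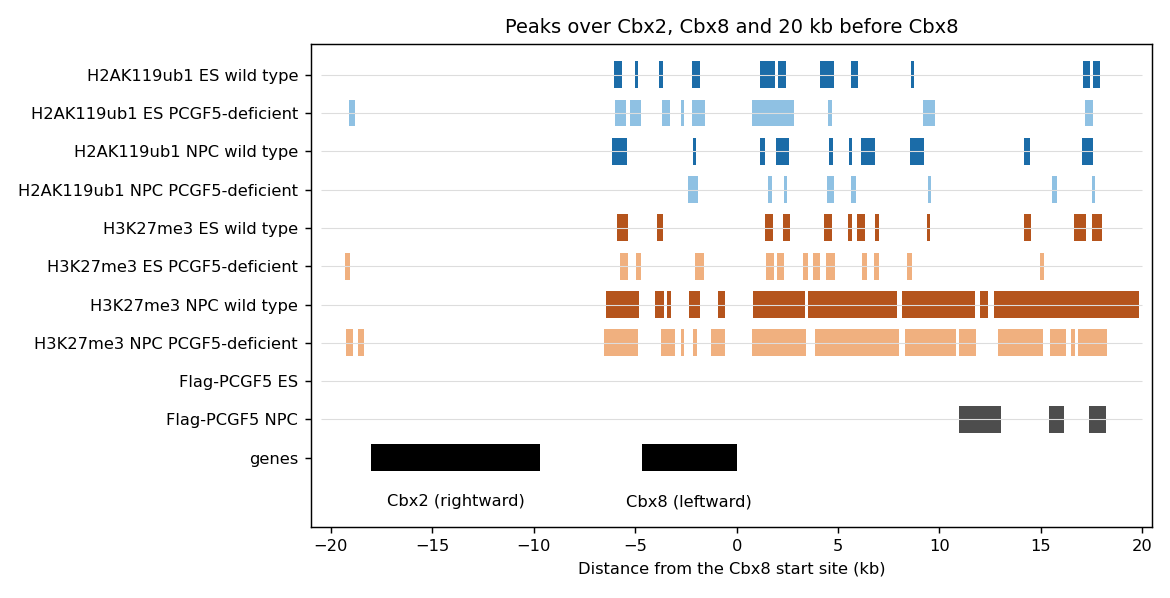
Peaks of the 10 lists over Cbx2, Cbx8 and the 20 kb before Cbx8, drawn to scale against the distance in kb from the farther start site of Cbx8; each row is 1 library, each block 1 peak and the black blocks are the genes with the direction they are read in. H3K27me3 peaks are broad in both NPC rows before Cbx8, the Cbx2 gene is free of peaks, and Flag-PCGF5 has 3 peaks in NPC and 0 in ES.

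Most of the H3K27me3 coverage in NPC lay in the 20 kb before Cbx8. There it covered 3495 bp in wild type ES, 2827 bp in deficient ES, 18065 bp (90.3%) in wild type NPC and 14765 bp (73.8%) in deficient NPC. The wild type NPC list had 5 peaks in it, of up to 7158 bp, and the PCGF5-deficient list 8, of up to 4164 bp. H2AK119ub1 covered 2992, 3195, 3499 and 1531 bp. Between Cbx2 and Cbx8, H3K27me3 covered 537 and 627 bp in ES and 1641 and 1663 bp in NPC, while H2AK119ub1 covered 575 and 1054 bp in ES and 731 and 0 bp in NPC.

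The Cbx2 gene had 0 bp in every list. Thus in both genotypes the H3K27me3 peaks of NPC stopped between Cbx8 and Cbx2, and beyond the Cbx2 gene the PCGF5-deficient list had the promoter peaks given above.

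**Figure D4:**
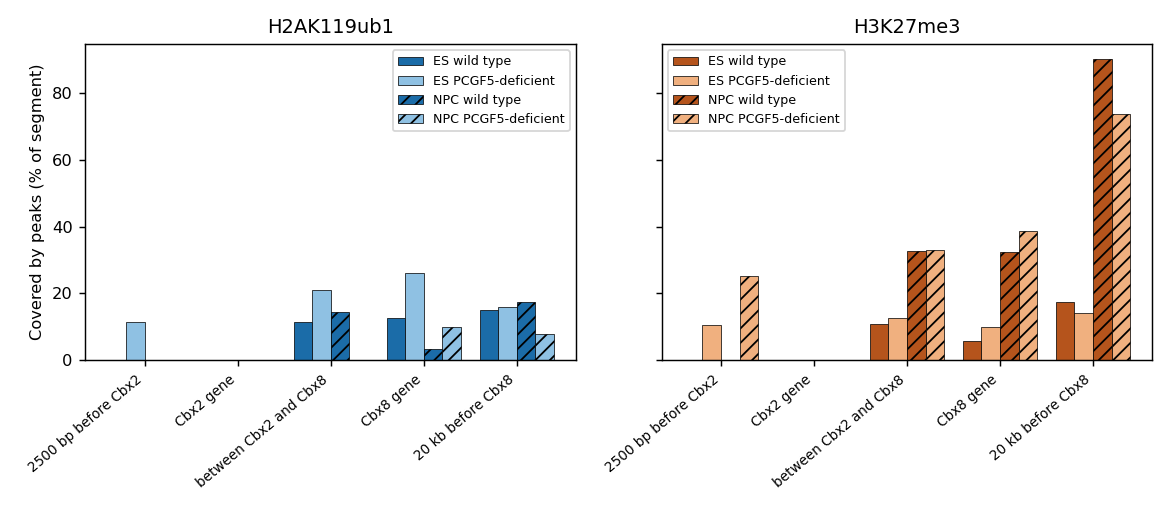
Share of each segment of the stretch around Cbx2 and Cbx8 covered by H2AK119ub1 peaks (left) and H3K27me3 peaks (right), in percent; colours give the genotype, hatched bars are NPC, and each bar is 1 library. The H3K27me3 bars for the 20 kb before Cbx8 are 17.5% and 14.1% in ES and 90.3% and 73.8% in NPC, and the Cbx2 gene has no bar.

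Flag-PCGF5 had 0 peaks in the stretch in ES and 3 in NPC, covering 3656 bp. They were centred 11.99, 15.8 and 17.8 kb upstream of Cbx8. Their fold enrichments were 1.96, 2.74 and 3.43, and the median of their list was 2.22. They were overlapped by peaks of 2, 3 and 7 of the 8 histone lists. The peak at 17.8 kb thus had the highest fold and the most histone lists, and the list without a peak there was H3K27me3 of PCGF5-deficient ES. The Flag-PCGF5 list of NPC is 12013 peaks long and that of ES 653, so the number of peaks in the stretch follows lists of unequal length.

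Eed encodes the PRC2 subunit that binds H3K27me3 and is needed for the activity of the complex. The gene lies on chromosome 7 from 97103166 to 97129493 on the minus strand, and its Flag-PCGF5 peak of NPC, at chr7:97128632-97129588, covers the start site. The peak was 957 bp wide with a fold of 2.02 and a −log10 q-value of 2.54, and stood at percentile 39.0 of its list, below the higher-scoring 50%. There was no such peak in ES, and 95.1% of the genes with a Flag-PCGF5 promoter peak at either stage were higher in NPC by the same rule and 3.97% lower. The nearest histone peak of any list was 321 kb from the Eed start.

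Jarid2 encodes a partner of PRC2 that helps to bring it to its targets. Its only peak was of H3K27me3 in wild type NPC, in an intron 28.8 kb from the nearest of 9 start sites. It was 258 bp wide with a fold of 3.01, a −log10 q-value of 11.0 and a percentile of 73.6, while the fold of the median peak in that list was 4.69. Of the 223 words of 36 bases in this peak, 68 (30.5%) occurred elsewhere in the assembly, in 14 other bins of 5 kb. Of these bins 9 held a peak of at least 1 histone list, against 4.14% of all bins of 5 kb. Only exact matches were counted, so near copies, and copies missing from the assembly, are not in this share. Reads no longer than such a word cannot be assigned to 1 place, and their part in the Jarid2 peak was not tested.

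The catalytic subunits had no peak. Ezh2, the methyltransferase that prevails in dividing cells, had its nearest histone peak at 56.4 kb, and all 8 histone lists had their nearest peak between 56.4 and 57.7 kb away. Ezh1, its paralogue, had the nearest histone peak at 19.3 kb and the farthest of the lists at 58.1 kb. Suz12, the core subunit that holds the complex together, had a peak of H3K27me3 in wild type NPC at 18.99 kb, and the other lists ranged up to 491 kb.

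The other chromodomain genes were also free of peaks. Cbx6 had its nearest histone peaks between 25.4 and 31.0 kb away in all 8 lists and the nearest Flag-PCGF5 peak of NPC at 20.8 kb. A start site of Npcd lies within 5 kb of a Cbx6 start site. Cbx7, which encodes a CBX protein of PRC1 in self-renewing ES, had its nearest peak in H3K27me3 of PCGF5-deficient ES, at 10.4 kb, and the histone lists ranged up to 128 kb. Thus of the 4 chromodomain genes, the neighbours Cbx2 and Cbx8 on chromosome 11 had promoter peaks in the histone lists, and Cbx6 and Cbx7 on chromosome 15 did not.

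PRC2 binds promoters rich in CG dinucleotides, so the sequence at the start sites of the 9 genes was read beside their peaks. The ratio of observed to expected CG dinucleotides was taken over 1001 bp around the first start site of each gene. It had a median of 0.555 over 22229 genes, with quartiles of 0.228 and 0.770. It was 0.999 for Cbx2, 0.936 for Eed, 0.921 for Ezh2, 0.874 for Suz12, 0.797 for Ezh1, 0.689 for Jarid2, 0.671 for Cbx8, 0.647 for Cbx6 and 0.456 for Cbx7. All but Cbx7 were thus above the median of all genes. The genes with an H3K27me3 promoter peak in any list had a median of 0.645 (5130 genes) and the rest 0.477 (17099 genes). Cbx8, marked in every histone list, had a ratio between those of Cbx6 and Jarid2, which had no promoter peak. Its ratio was read around the farther start site, at 118902283, where no histone list had a peak. The Cbx8 peaks on either side ended at 118901731 and began at 118903053, so this ratio does not describe the marked bases. The Cbx2 ratio, read around its start site, mostly describes other bases too, as its promoter peaks were centred 522 to 1169 bp before the start. The printed Cbx2 peak held 4 CG dinucleotides in 262 bases, with 47.3% G and C. Ezh2, Eed and Suz12 had high ratios and no histone promoter peak.

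**Figure D5:**
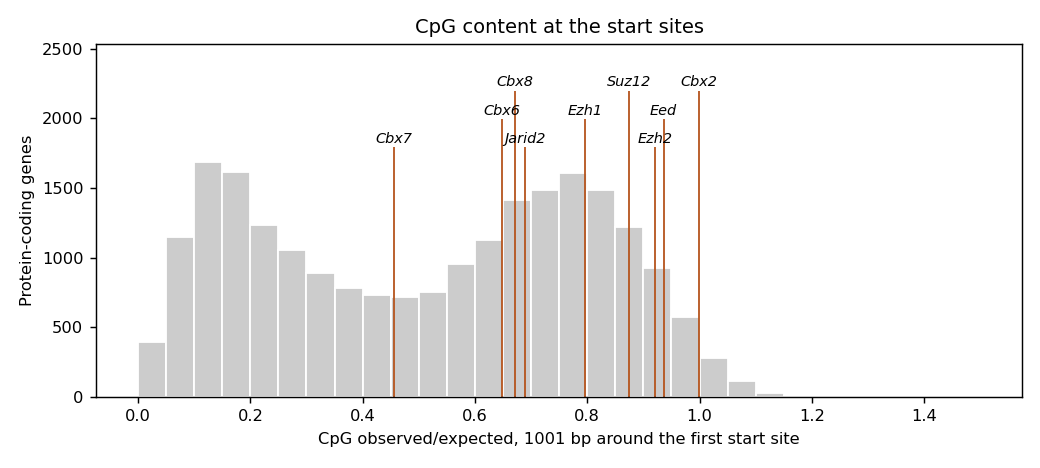
Ratio of observed to expected CG dinucleotides in 1001 bp around the first start site, as a histogram over 22229 protein-coding genes (grey bars, number of genes) with the 9 genes as lines; line height only separates the names. Cbx8 at 0.671 lies between Cbx6 at 0.647 and Jarid2 at 0.689, and Cbx2 at 0.999 is the highest of the 9.

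Of 23 other Polycomb and related genes, 5 had a promoter peak in a histone list, beside 24.6% of all genes. H2AK119ub1 marked 0, 0, 1 and 1 of the 23 in wild type ES, PCGF5-deficient ES, wild type NPC and PCGF5-deficient NPC, and H3K27me3 marked 0, 2, 4 and 2. Over all genes these lists marked 4.17% to 6.69% for H2AK119ub1 and 12.9% to 15.7% for H3K27me3, and nothing particular to these genes can be read from the counts. Bmi1, which encodes the PCGF subunit of a canonical PRC1, had 2730 bp of H3K27me3 in wild type NPC and 2997 bp in deficient NPC, 363 bp in deficient ES and none in wild type ES. Its H2AK119ub1 promoter coverage was 2028 bp (7 peaks) in wild type NPC, with no such peak in the other populations. In deficient NPC the gene with an H2AK119ub1 promoter peak was Aebp2, with 348 bp (1 peak). Phf19, which encodes a PRC2 partner that reads methylated H3K36, had 1554 bp of H3K27me3 in deficient ES and 1926 bp in wild type NPC, and no H3K27me3 promoter peak in the other populations. The remaining 3 were Phc2, Aebp2 and E130012A19Rik. The 3 HP1-type Cbx genes, the 2 H3K27 demethylase genes and the 4 genes for removal of H2AK119ub1 had no promoter peak in any list.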

How the data were processed

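ChIP-seq peak lists of 10 libraries were used, with 1 library per group and none pooled. According to the methods, micrococcal nuclease fragments that were then lightly fixed were used for both histone marks, and doubly fixed, sonicated chromatin for Flag-PCGF5. Reads were trimmed, and the authors aligned them to mm9 with Bowtie2, removed duplicates and called peaks per library with MACS2 (version 2.1.0 in the submitters' processing notes), so the width and number of peaks depend on depth and fragment length as well as on the mark. The spike-in does not enter the lists. Each deposited peak has a score, a fold enrichment (ratio) and the −log10 of its p-value and q-value. The score is the deposited −log10 p-value (histone lists) or −log10 q-value (Flag-PCGF5 lists) times 10, rounded down.

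Coordinates count from 1 on NCBIM37 (mm9), and 0 peaks lay beyond a chromosome end. Start sites and genes came from GENCODE M1. Coverage is the union of whole peaks whose centre is within 2500 bp of a start site. A difference was called at 2-fold coverage or when only 1 list had a peak, and no test was made. The score percentile is the rank of a peak within its list. Peaks of equal score were ordered by p-value, q-value and fold, and then at random. All 9 genes are named, and other genes by lists of Polycomb genes and cell type markers. Of the NPC markers, Sox1 was not analysed here. Of the listed Polycomb genes, 1 is not reported here. The members and lists were chosen with earlier results of these data known. Sequences were planned as those under wild type H3K27me3 peaks outside untranslated regions. Within these, the Cbx8 stretches were picked by the number of histone lists of both marks and genotypes that covered them. Those of Cbx2 and Eed were added after the values were seen. A word of 36 bases was sought on both strands of the assembly. The alternatives were a window of 1000 bp, any base of a peak in the window, the higher-scoring 50% of a list, a q-value of at most 0.05, equal numbers of top-scoring peaks, merged peaks and clipped peaks. On simulated peaks planted in or near the window of 200 genes, 0 genes had a wrong coverage. These genes had 1 start site, 1 planted peak and no close neighbour. Genes with several start sites or several peaks, such as Cbx8, were not simulated. Python 3.11.15, numpy 2.4.6 and pandas 2.3.3 were used.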

Additional observations from a re-analysis of the deposited data

Results flagged for a closer look

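The H2AK119ub1 coverage of the Cbx8 promoter moved in opposite directions in ES and NPC. In PCGF5-deficient against wild type cells the log2 difference was 0.95 in ES, from 1691 to 3272 bp, and -0.41 in NPC, from 1053 to 792 bp. Over the genes with a promoter peak in both genotypes the median was -0.15 in ES and -0.58 in NPC, so Cbx8 was above the median at both stages. The whole NPC lists of H2AK119ub1 covered 2.33 Mb in wild type and 1.12 Mb in PCGF5-deficient cells. This contrast of the stages was not tested, as each group had 1 library. With a window of 1000 bp, or with equal numbers of top-scoring peaks, the NPC value was above 0 as well.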

How the results depend on the processing

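The 42 counts of genes were recomputed under the alternatives set for them, which gave 228 values, of which 199 stayed within 1.5 times of the value reported and 29 moved. A q-value of at most 0.05 moved none of the 42, and any base of a peak in the window, merged peaks and clipped peaks moved none of the 32, 20 and 18 counts recomputed with them. With a window of 1000 bp, H3K27me3 promoter peaks were at 0 of the 9 genes in wild type ES and 1 in PCGF5-deficient ES, both marks together at 0 and 1, H2AK119ub1 was higher in PCGF5-deficient NPC at 1 gene, and H2AK119ub1 was lower in NPC than in ES at 1 gene in each genotype. With the higher-scoring 50% of each list, 1 gene had a promoter peak, and 1 a peak anywhere on the gene, of H2AK119ub1 in PCGF5-deficient ES, of H3K27me3 in PCGF5-deficient ES and of H3K27me3 in PCGF5-deficient NPC, and 0 of Flag-PCGF5 in NPC. The genes higher in PCGF5-deficient NPC for H3K27me3 were then 0, those lower in NPC than in ES for H2AK119ub1 1 in each genotype, those higher in NPC 1 for H3K27me3 of PCGF5-deficient cells and 0 for Flag-PCGF5, and those with both marks in PCGF5-deficient ES 1. With equal numbers of top-scoring peaks (3845 for H2AK119ub1, 10234 for H3K27me3, 653 for Flag-PCGF5), the same counts were 1 for H2AK119ub1 in PCGF5-deficient ES and 0 for Flag-PCGF5 in NPC, at the promoter and anywhere on the gene, 1 for H2AK119ub1 lower in PCGF5-deficient NPC than ES, 1 for H3K27me3 higher there, 0 for Flag-PCGF5 higher in NPC and 1 for both marks in PCGF5-deficient ES. Thus the 4 Cbx2 peaks and the Eed peak were not among the higher-scoring 50% of their lists. The log2 difference of Cbx8 H2AK119ub1 coverage between PCGF5-deficient and wild type NPC changed sign, from -0.41 to 1.64 with a window of 1000 bp and to 0.28 with equal numbers of peaks. In ES the differences in PCGF5-deficient cells, 0.95 for H2AK119ub1 and 0.27 for H3K27me3, were 1.05 and 1.83 with the higher-scoring 50%, and that of H2AK119ub1 was 1.51 with equal numbers. Counts of 1 gene higher in PCGF5-deficient ES then stood for Cbx8 where Cbx2 had 0 bp. The causes were not tested. With a window of 1000 bp the H3K27me3 coverage of Cbx8 in wild type ES was 0 bp, so no log2 difference could be had from it. No paired analysis was possible because each group had 1 library, and for the same reason no replicate could be left out. Depth is unknown, which limits what a missing peak shows.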
